A study of Mus musculus with 6 samples.

Results

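Long intergenic noncoding RNAs (lincRNAs) of microglia were examined: 76 genes out of the 49585 that the deposited count files list, and out of 4151 listed genes that GENCODE release M21 types as lincRNA. A lincRNA gene was included when at least 3 of the 6 libraries held 20 or more counts of it in the column that ignores strand. Of the 4151, 3295 had no count in any library. The members were thus chosen by their own counts, and their presence and level are a description. The microglia, the resident macrophages of the brain, came from male mice 3 months old. There were 3 libraries of wild-type mice (WT) and 3 of mice labelled IRF8KO, a knockout of the transcription factor IRF8. The labels give neither the allele nor the strain. Each library came from its own brain, and cells were freed without enzymes, sorted into TRIzol, and their polyadenylated RNA was copied by template switching (SMART-Seq v4).

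LincRNAs are transcripts longer than most small RNAs, usually spliced and polyadenylated, that are annotated as lacking a protein product and as lying between protein-coding genes. Some work in the nucleus as scaffolds, as Neat1 does in paraspeckles. Others serve as the primary transcripts from which snoRNAs or microRNAs are cut, and for others transcription across the locus is thought to matter more than the RNA. IRF8 binds DNA with the partner PU.1 at composite elements and is needed for the normal state of microglia.

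Gene counts ran from 3658917 to 11098363 per library, and Irf8 itself stood at 795, 851 and 1403 CPM (read counts scaled to library size) in WT and at 743, 650 and 850 CPM in IRF8KO, so its total count did not separate the groups (log2 fold change -0.44 ± 0.33 SE, adjusted p = 0.368, edgeR). A deleted exon cannot be read from gene totals, so this value does not check the genotype. Of 11 microglia marker genes, 11 were tested, 1 was higher and 4 were lower in IRF8KO. Of 7 tested markers of border-associated macrophages 7 were higher in IRF8KO, of 8 handling-response genes 8 were lower, and of 2 tested lymphocyte genes 2 were lower. WT replicate 3 stood apart from the other WT libraries in these handling genes and was mixed against IRF8KO. In it, Fos stood at 0.138 CPM, below the 11.2 to 21.8 CPM of IRF8KO, and Dusp1 at 18.9 CPM, below 78.8 to 105 CPM, and Hspa1a lay below as well. Egr1 at 12.7 CPM, Atf3 at 30.9 CPM and Junb at 391 CPM lay above every IRF8KO library, and Jun and Btg2 lay within the IRF8KO range. That library also had 2.44% of reads outside genes, against 7.70% and 7.52% in the other WT libraries. Of 4 tested astrocyte genes 2 were higher and 1 was lower, the 1 tested endothelial gene, Pecam1, was lower, and of 5 tested oligodendrocyte genes 1 was lower. Neutrophil genes appeared in IRF8KO replicate 2, with S100a8 at 121 CPM and S100a9 at 57.2 CPM, both at or below 0.803 CPM in the other 5 libraries. Neuronal markers summed to between 0.354 and 9.10 CPM in WT and between 21.4 and 28.7 CPM in IRF8KO. Apoe took 0.234 ± 0.0853% of gene counts in WT and 29.1 ± 4.22% in IRF8KO (SD, n = 3 each). The part of these shifts in the lincRNA differences was not tested, and in bulk samples fewer cells of a type and less RNA per cell cannot be told apart.

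The set was sparse. Members took 0.145 ± 0.0459% of gene counts in WT libraries and 0.183 ± 0.0395% in IRF8KO libraries (SD, n = 3 each), with overlapping ranges of 0.0921% to 0.176% and 0.146% to 0.224%. Without Apoe in the denominator these shares were 0.145% and 0.257%, with ranges of 0.0924% to 0.176% and 0.220% to 0.312% that did not overlap. Gm26917 alone held 30.2 ± 2.25% of the members' counts in WT and 50.8 ± 5.42% in IRF8KO. Only 26 of the 76 genes reached 20 counts in all 6 libraries. A further 5 (Gm11707, Gm26863, Epb41l4aos, Gm26669 and Gm13710) reached it in no WT library, and 2 (Pvt1 and A830008E24Rik) reached it in no IRF8KO library. These 7 entered through 1 group alone, so a difference in them is partly built into the choice. A further 12 members reached 20 counts in all 3 IRF8KO libraries and in 1 WT library, so the IRF8KO libraries alone met the rule for them too. They include Gm16907, at 9, 20 and 0 counts in WT and 27, 112 and 88 in IRF8KO, and Gm26888, at 7, 26 and 6 counts in WT and 46, 107 and 110 in IRF8KO. At the edge of the count rule, 4933404O12Rik, A430046D13Rik, Gm26541 and Gm26637 had 20 as the third highest of their counts, and Fam120aos, Gm26520 and Gm26522, with 19, stayed out.

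Per length, the median member stood at 2.5 CPM per kb of exon, beside 3.32 for 10338 tested protein-coding genes, and 32 members lay above that coding median. The highest levels per kb, averaged over the 6 libraries, were 222 for Gm26917, 152 for Mir142hg, 49.0 for Gm10076, 41 for Gm5086 and 37.6 for AW112010. They were followed by Gm11707 at 31.2, Malat1 at 21.1, Snhg20 at 19.7, Gm38843 at 18 and Tmem250-ps at 16.7 CPM per kb. The order differed between genotypes: Gm11707 stood at 3.16 ± 1.17 CPM per kb in WT (rank 30) and 59.3 ± 6.19 in IRF8KO (rank 5), and Malat1 ranked 4 in WT and 13 in IRF8KO. Gm10076 and AW112010 ranked 9 and 7 in WT and 3 and 4 in IRF8KO, while Mir142hg and Gm26917 held the leading 2 places in both. The place of Mir142hg rests on a short model of 269 exonic bases, at a mean of 37.5 CPM in WT and 44.0 CPM in IRF8KO. Neat1, which has 20771 exonic bases, ranked 13 by CPM and 56 per kb. Snhg20 and Tmem250-ps, ranked 4 and 5 by CPM, overlapped across the 6 libraries, at 15.6 to 86.8 CPM and 19.1 to 65.0 CPM.

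Between genotypes, 18 of the 76 members passed an adjusted p of 0.05, beside a background of 19.1% of all 11041 genes tested. The share was 23.7%, and how it stood to the background varied with the fit. The members' share lay below the background with library size alone. It also lay below with 10 counts required in every library (15.8%, against 23.7% of all genes), where untested members count as not called. Without IRF8KO replicate 3 it was about 2 times the background (17.1%, against 7.95% of all genes). With no expression filter it was again about 2 times (25%, against 12.5%). That fit tested 21503 genes with no minimum count, whereas members were chosen by their counts, so its background is not matched to them. By direction, 14 members rose in IRF8KO (18.4% of members, against a background of 9.64%) and 4 fell (5.26%, against 9.46%). These counts include Gm11707, Gm26863, Epb41l4aos and Gm26669 among the higher and Pvt1 and A830008E24Rik among the lower, which reached the count rule in 1 genotype alone, so a difference in them is partly built into the choice. Over the other 69 members, a choice made after seeing the data, 10 rose (14.5%) and 2 fell (2.90%), beside 8.90% higher and 9.40% lower among 9105 genes of any type held to the same condition, and these 69 are not free of the selection either, since they hold the 12 members that met the rule through IRF8KO and 1 WT library. Of the 9487 tested genes of any type that met the same count rule, a background added after seeing the data, 20.7% were called, 10.4% higher and 10.3% lower. Nothing particular to lincRNAs is read from the split. All 18 differed by at least 2-fold, and in each of them the 3 WT and 3 IRF8KO libraries did not overlap. Groups did not overlap in 35 members (46.1%), beside a background of 37.9%. The median log2 fold change was 0.64 over members and -0.11 over all genes tested, and 51 members had a positive value. With scaling by library size alone the split became 7 higher and 6 lower of 13 called (17.1% of members, against 23.2% of all genes in that fit), and the median of all genes moved to -0.61. Under that scaling the calls of Gm5086, Snhg20, AU020206, E230001N04Rik, Epb41l4aos, Gm16907 and Gm26669 were lost. With a GC and length offset 13 rose and 8 fell of 21 called (27.6%, against 25.4% of all genes), and E230001N04Rik, Epb41l4aos and Gm16907 lost their calls.

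**Figure D1:**
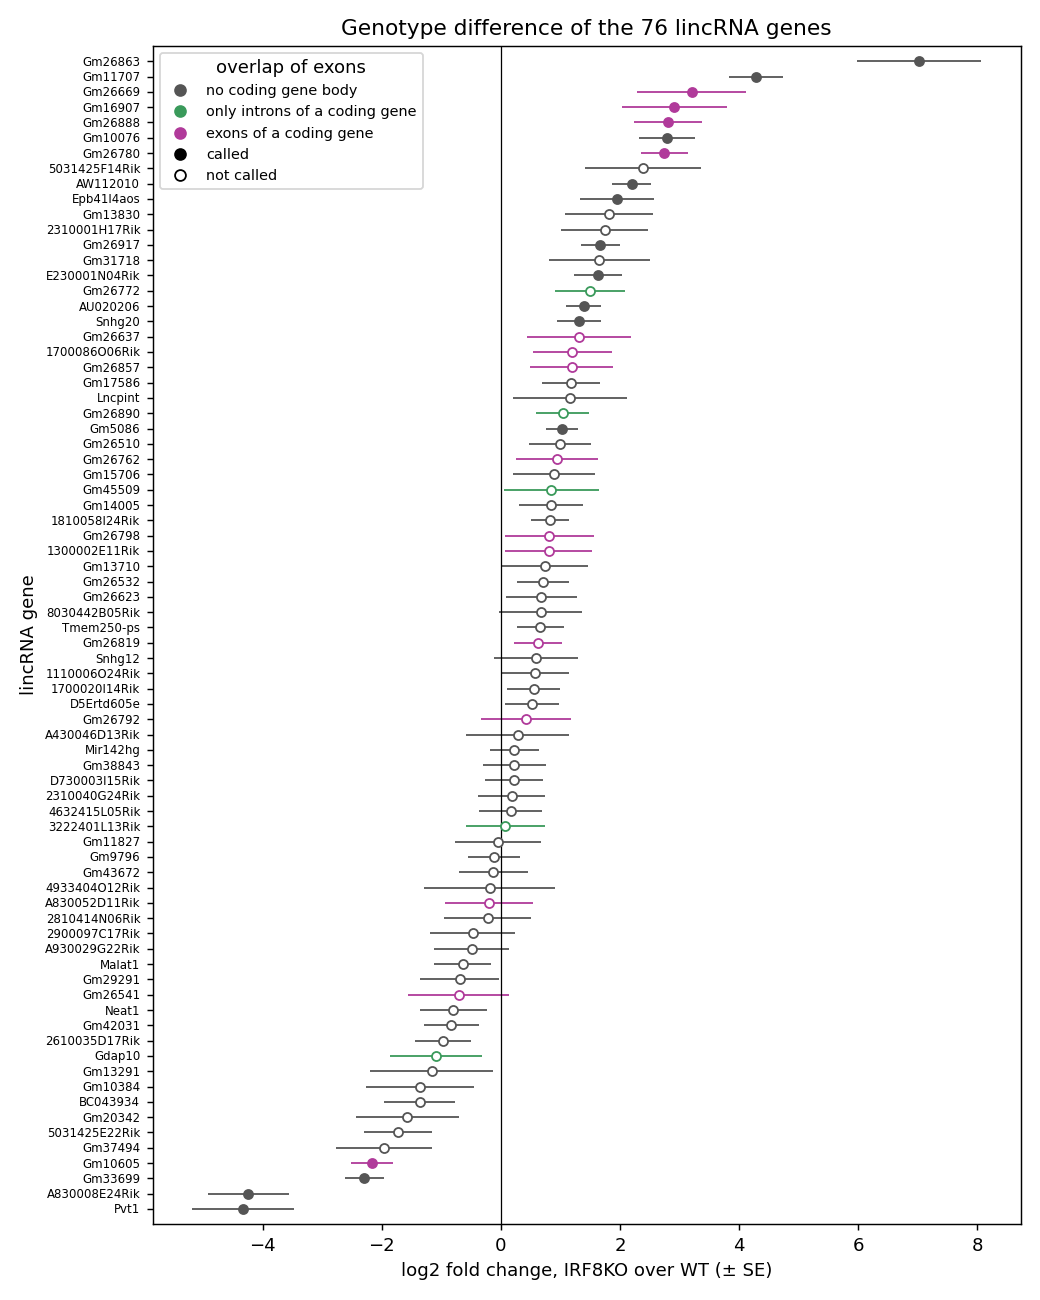
Log2 fold change of IRF8KO over WT with its standard error for each of the 76 lincRNA genes, ordered by value and coloured by what its exons overlap. Filled points passed the test: 14 lie to the right of 0, up to Gm26863 at 7.02, and 4 to the left, down to Pvt1 at -4.33.

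The genes that fell were led by Pvt1, a long spliced locus downstream of the proto-oncogene Myc that is known to be co-amplified with it in tumours. Pvt1 (chr15:62037986-62378096, plus strand, GRCm38) stood at 5.25, 9.77 and 6.62 CPM in WT and at 0, 0.628 and 0.325 CPM in IRF8KO. Every WT library was above every IRF8KO library, at a log2 fold change of -4.33 ± 0.85 (SE, adjusted p = 0.00443, edgeR quasi-likelihood test with Benjamini-Hochberg adjustment). Without IRF8KO replicate 2 it was -5.18 (edgeR adjusted p = 0.00713). Pvt1 met the count rule through the WT libraries alone, so its difference is partly built into the choice. Myc, whose body ends 47.6 kb upstream, fell as well, from 44.8 ± 16.6 to 7.34 ± 2.15 CPM (SD, n = 3 each; log2 fold change -2.60, edgeR adjusted p = 0.000915). Beside these values, 8 of 8 handling-response genes were lower in IRF8KO, with sums of 618 to 9003 CPM in WT and 551 to 662 CPM in IRF8KO.

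A830008E24Rik (chr1:154037597-154117951, minus strand), which holds the snoRNA gene Gm25336 in its body, stood at 11.1, 17.3 and 7.86 CPM in WT and at 1.12, 0.628 and 0.217 CPM in IRF8KO. It fell by 4.24 on the log2 scale (SE 0.68, edgeR adjusted p = 0.00133), and by 3.53 with a GC and length offset. A830008E24Rik also met the count rule through the WT libraries alone, with the same limit. Gm33699 (chr9:61032212-61059116, plus strand) was the most evenly measured of the genes that fell, at 36.8, 51.2 and 37.8 CPM in WT against 8.19, 7.72 and 9.76 CPM in IRF8KO. Its log2 fold change was -2.29 ± 0.32 (SE, edgeR adjusted p = 0.00061), and no protein-coding gene lay closer than Uaca, 152 kb away. Gm10605, the fourth, overlaps the coding gene Tpbgl and is described with the overlapping genes.

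Among genes that rose, the widest gap belonged to Gm26863 (chr15:38384981-38386300, plus strand), which had 1 count over the WT libraries and 49, 63 and 73 counts in the IRF8KO libraries. Scaled for library size, the ratio of the summed counts was 184 (exact 95% interval 32.7 to 7325, counting error only). The fitted log2 fold change was 7.02 ± 1.04 (SE, edgeR adjusted p = 0.000819), and it was 9.09 without WT replicate 1 and 6.16 without WT replicate 2 (edgeR adjusted p = 0.00102 and 0.00398). Gm11707 (chr11:106972058-106973090, minus strand) stood at 2.14, 0.991 and 1.52 CPM in WT and at 29.4, 25.8 and 31.9 CPM in IRF8KO. At a log2 fold change of 4.28 ± 0.45 it had the smallest adjusted p of all members (8.04e-05, edgeR), and its groups did not overlap. With a GC and length offset it was 2.97 (edgeR adjusted p = 0.000716). Its nearest coding gene, Kpna2, an importin subunit 15.5 kb away, was at -1.17 (edgeR adjusted p = 0.158).

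AW112010 (chr19:11047612-11055808, minus strand) is known as a transcript that macrophages raise in inflammation and that can be translated from a non-canonical start. It stood at 8.56, 12.7 and 11 CPM in WT and at 50.1, 38.6 and 60.5 CPM in IRF8KO, a log2 fold change of 2.20 ± 0.33 (SE, edgeR adjusted p = 0.000787). AU020206 (chr7:75769038-75782099, minus strand) rose by 1.39 ± 0.29 (edgeR adjusted p = 0.00658), with 26.7, 19.8 and 17.8 CPM in WT and 54.1, 63.7 and 49.9 CPM in IRF8KO. The coding gene nearest to it, Akap13, an anchoring protein for protein kinase A that lies 14.4 kb away and converges on it, went the other way, at -1.14 (edgeR adjusted p = 0.0353). E230001N04Rik, a gene of 1 exon 5.19 kb from the start of Fkbp5, rose by 1.63 ± 0.40 (edgeR adjusted p = 0.0151). Its IRF8KO libraries spread widely, at 57.9, 28.6 and 80.1 CPM against 25.1, 14.7 and 14.5 CPM in WT, and the call was lost without WT replicate 2 or without IRF8KO replicate 1 or 3.

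**Figure D2:**
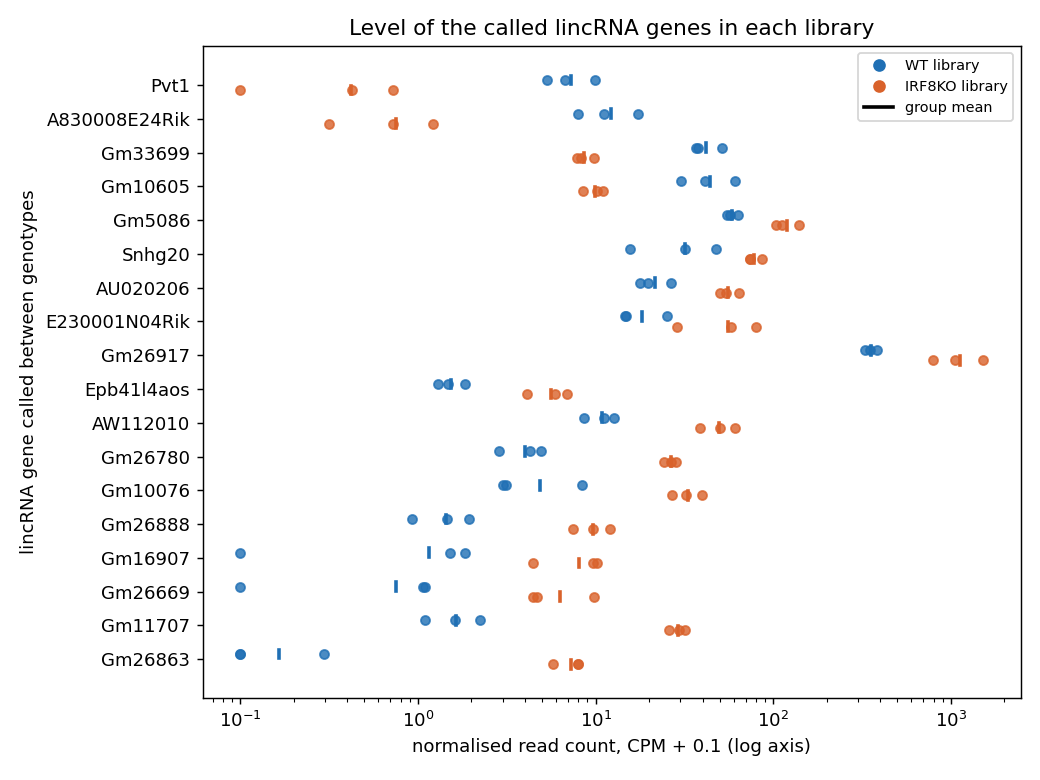
Normalised read count (CPM plus 0.1, log axis) of the 18 called lincRNA genes in each WT and IRF8KO library, with bars at the group means, ordered by log2 fold change. The groups do not overlap in any of the 18 genes. Gm26917 has the highest level, 355 CPM in WT and 1125 CPM in IRF8KO, and Pvt1, A830008E24Rik, Gm33699 and Gm10605 at the top are those lower in IRF8KO.

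Gm5086 (chr13:97559971-97583996, plus strand) ranked 3 among members by CPM. It stood at 54.7, 56.9 and 63.0 CPM in WT and at 140, 104 and 112 CPM in IRF8KO, about 1 log2 unit higher (1.03 ± 0.26 SE, edgeR adjusted p = 0.0184). The call was lost without WT replicate 1 or 2 or without IRF8KO replicate 1 or 3, where adjusted p rose to at most 0.0946. Gm5086 is also the sole called member, of 7 found in the RefSeq promoter table, whose promoter holds GGAA and GAAA with any 2 bases between them, the composite element at which IRF8 and PU.1 can bind together. Searched on both strands, it has 2 matches, which begin 150 and 12 bases upstream of the RefSeq start. The promoter is shown for that reason, chr13:97559750-97560049 on the plus strand of GRCm38.p6, with matches in capitals.
Gm5086 promoter: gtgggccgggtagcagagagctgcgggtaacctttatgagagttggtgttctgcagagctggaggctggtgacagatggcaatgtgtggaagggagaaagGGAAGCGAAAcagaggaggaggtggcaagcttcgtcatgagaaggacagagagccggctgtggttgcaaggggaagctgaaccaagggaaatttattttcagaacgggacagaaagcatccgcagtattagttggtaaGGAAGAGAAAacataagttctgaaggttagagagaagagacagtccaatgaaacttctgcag
The RefSeq table matched 33 of the 76 members by symbol alone, with 39 promoters. The composite element was in 2 of these 39, those of Gm5086 and Gm31718, and in 2.72% of all 32851 promoters of the table. The core of the interferon-stimulated response element, GAAA repeated after any 2 bases, which can overlap the first motif, was in 1 of 39, that of Gm31718, and in 3.44% of all. Gm31718 had a log2 fold change of 1.65 ± 0.84 and did not pass the test (edgeR adjusted p = 0.193). Such matches describe the letters only.

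Host transcripts of small RNAs made up 5 members, namely Snhg12, Snhg20, Mir142hg, Epb41l4aos and A830008E24Rik, with the small RNA in the body on the same strand. Of these, 3 were called, 2 higher and 1 lower, beside 9.64% higher and 9.46% lower of all genes tested. Snhg20 (chr11:117076008-117078955, plus strand) carries the Cajal-body RNA gene Gm26083 and the microRNA gene Mir6516. Its level was 31.9, 15.6 and 47.6 CPM in WT and 86.8, 74.1 and 74.0 CPM in IRF8KO, so that WT libraries varied 3-fold while IRF8KO libraries were close together. The log2 fold change was 1.31 ± 0.37 (edgeR adjusted p = 0.0293), and the call was lost when WT replicate 1 or 2 or any of the 3 IRF8KO replicates was left out. The mature microRNAs inside this host are given from RefSeq (GRCm38.p6), since they are what the transcript could release, with the seed, bases 2 to 8, in capitals. The 2 arms differ in seed, and polyadenylated libraries do not measure the mature forms.
mmu-miR-6516-5p: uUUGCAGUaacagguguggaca
mmu-miR-6516-3p: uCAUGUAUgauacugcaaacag

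Epb41l4aos, host of the snoRNA gene Gm23639, rose from 1.75, 1.20 and 1.38 CPM in WT to 5.78, 4.04 and 6.83 CPM in IRF8KO. Its log2 fold change of 1.95 ± 0.62 was just past the threshold (edgeR adjusted p = 0.0475), and the call was lost without any of 5 libraries (all but WT replicate 3) and in 7 other settings. With a GC and length offset its log2 fold change was 0.53 (edgeR adjusted p = 0.526). Snhg12, which carries Snora16a, Snora44, Snora61 and Snord99, had a WT mean of 1.64 ± 0.275 CPM and an IRF8KO mean of 2.49 ± 0.783 CPM (SD, n = 3 each) and did not pass (edgeR adjusted p = 0.598). Mir142hg (chr11:87755577-87757270, plus strand), the host of the blood-lineage microRNA Mir142, was second per kb, over a model of 269 exonic bases. Its level was 46.3, 52.5 and 13.8 CPM in WT and 44.5, 42.0 and 45.6 CPM in IRF8KO, with WT replicate 3 well below the other libraries. The log2 fold change was 0.23 ± 0.41 (edgeR adjusted p = 0.739), and its sign depends on the scaling: it was -0.38 with library size alone, -1.41 with a GC and length offset and -0.13 without WT replicate 3. Across the whole fixed list of snoRNA hosts, coding and noncoding, 14 of 20 symbols were tested, 4 were higher and 0 lower in IRF8KO, with a median log2 fold change of 1.20. That is 28.6% higher, beside 9.64% higher and 9.46% lower of all genes tested, over few genes. Of those outside the lincRNA type, Gas5 (typed as processed transcript) went from 12.1 ± 4.01 to 47.7 ± 16.1 CPM (log2 fold change 1.98, edgeR adjusted p = 0.00338).

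Gm26917, the most abundant member in the unstranded column, lies beside ribosomal RNA sequence. It spans chr17:39843013-39846341 on the plus strand of GRCm38 in 1 exon, with a GC content of 69.8%, and ends 11 bases before CT010467.1, which GENCODE types as rRNA and annotates on the minus strand. The end of Gm26917 and the plus strand of CT010467.1 just after it are shown, from GENCODE M21 transcripts, because the capitals are the opening bases of the 18S ribosomal RNA.
Gm26917, chr17:39846282-39846341: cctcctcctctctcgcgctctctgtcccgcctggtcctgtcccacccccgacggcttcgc
CT010467.1, chr17:39846353-39846412: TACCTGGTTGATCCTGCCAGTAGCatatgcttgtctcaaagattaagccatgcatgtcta
Gm26917 stood at 351, 384 and 329 CPM in WT and at 1060, 794 and 1522 CPM in IRF8KO, a log2 fold change of 1.67 ± 0.33 (SE, edgeR adjusted p = 0.00445). CT010467.1 itself moved in the same direction, from 121 ± 27.9 to 530 ± 131 CPM (SD, n = 3 each; log2 fold change 2.13, edgeR adjusted p = 0.000848). The mitochondrial ribosomal RNA mt-Rnr1 went from 5.78 ± 2.77 to 17.2 ± 6.99 CPM (log2 fold change 1.59, edgeR adjusted p = 0.0431). Whether Gm26917 counts come from a lincRNA or from carried-over ribosomal precursor was not tested. With Gm26917 and Malat1 left out, the share of gene counts on the other members was 0.0784% in WT and 0.0792% in IRF8KO.

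Gm10076 (chr14:105681828-105682211, plus strand, 1 exon) ranked 3 per kb and has a near-identical copy elsewhere. Over 383 of its 384 bases it is 99.5% identical to a transcript of Rpl41, the gene of a small ribosomal protein. The stretch that matches the Rpl41 coding sequence, chr14:105681869-105681946, and the coding sequence itself, both from GENCODE M21, are shown because no base differs over all 78, stop codon included, so a read wholly within it can map to both genes, and the files count uniquely mapped reads.
Gm10076: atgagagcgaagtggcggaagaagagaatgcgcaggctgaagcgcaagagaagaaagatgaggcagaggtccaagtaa
Rpl41: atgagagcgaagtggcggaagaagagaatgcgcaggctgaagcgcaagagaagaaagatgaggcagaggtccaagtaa
Gm10076 counted 2.92, 3.04 and 8.27 CPM in WT and 32.3, 26.7 and 39.7 CPM in IRF8KO (log2 fold change 2.79 ± 0.47 SE, edgeR adjusted p = 0.00175), and with a GC and length offset its log2 fold change was 1.53. Without WT replicate 3 it was 3.48 (edgeR adjusted p = 0.000134). Rpl41 went from 64.1 ± 21.2 to 270 ± 70.0 CPM (log2 fold change 2.08, edgeR adjusted p = 0.00134). The Gm10076 value is therefore uncertain as a measure of that locus. Copies elsewhere were found for 2 further members, Gm26623, which resembles H2afz, and 2900097C17Rik, the mouse Norad locus, which resembles Gm7292. Neither passed the test.

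Although lincRNAs are defined as intergenic, the exons of 15 of the 76 members (19.7%) overlapped exons of a protein-coding gene. The overlap was on the opposite strand in 14 and on the same strand in 1, 1300002E11Rik over Map3k13. It reached 10% of exonic length in 8 members and touched coding sequence in 10. A further 5 lay over introns only (Gm26890, Gm26772, Gm45509, Gdap10 and 3222401L13Rik), and 56 touched no coding gene body. Over all 4151 listed lincRNA genes the share with coding exon overlap was 5.90%. The members were chosen for their counts, so this comparison is a description.

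Because the libraries carry no strand, the unstranded column leaves out every read that falls on exons of 2 genes. Imposing a strand keeps such reads where the genes lie on opposite strands. The sum of both stranded columns over the unstranded count therefore shows how many reads an overlap on the opposite strand hides or lends, and cannot show it for 1300002E11Rik, which overlaps on the same strand. In the 15 members over coding exons that ratio had a median of 3.74 and ran from 1 to 156, and in the 5 over introns it was 1. The highest was Gm26541, which shares 48.4% of its exonic length with Mob3a, of the MOB family of kinase adaptors. Gm26762, over Gpi1, the glycolytic glucose-6-phosphate isomerase, had 17.9, and Gm26669 and Gm26857, over Zfp36l1 and the tyrosine kinase Lyn, had 8.94 and 7.99. Such extra reads cannot be assigned to either gene. In 61 members the ratio lay between 0.9 and 1.1.

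**Figure D3:**
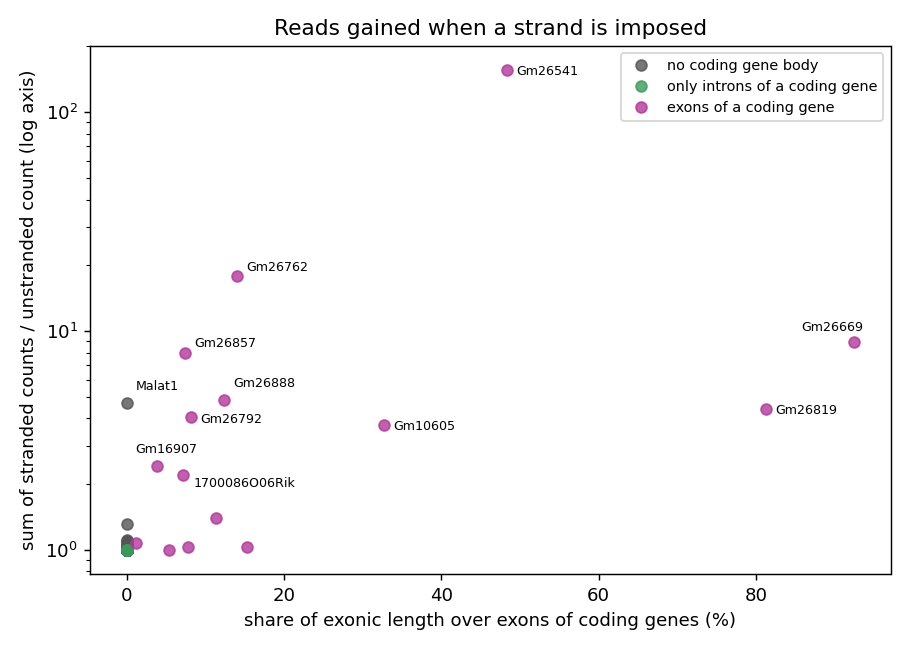
Ratio of the summed stranded counts to the unstranded count (log axis) against the share of exonic length over exons of coding genes (%), 1 point per lincRNA gene. Genes over coding exons reach 156, those over introns sit at 1, and Malat1, with no coding overlap, is at 4.72.

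Of the 15 members over coding exons, 4 rose and 1 fell, and of the 56 with no coding body, 10 rose and 3 fell. As shares these are 26.7% and 6.67% of 15 and 17.9% and 5.36% of 56, beside 9.64% higher and 9.46% lower of all genes tested, and whether the classes differ was not tested. None of the 5 over introns passed the test. Gm10605 (chr7:99625936-99631711, plus strand), with 32.7% of its exons over Tpbgl, stood at 41.1, 30.1 and 61.1 CPM in WT and at 8.35, 10.1 and 11 CPM in IRF8KO. It fell by 2.16 on the log2 scale (SE 0.35, edgeR adjusted p = 0.00149) and kept its call in each stranded column, at -2.01 and -1.82. Tpbgl, a membrane protein related to trophoblast glycoprotein, fell with it, from 334 ± 232 to 91.7 ± 23.7 CPM (log2 fold change -1.87, edgeR adjusted p = 0.0119). Gm16907 (chr13:63289601-63297147, minus strand), inside 2010111I01Rik, a gene for an aminopeptidase, stood at 1.75, 1.42 and 0 CPM in WT and at 4.33, 10.1 and 9.54 CPM in IRF8KO. Its log2 fold change was 2.91 ± 0.89 (edgeR adjusted p = 0.0392). The host rose from 12.3 ± 0.898 to 78.1 ± 9.34 CPM (log2 fold change 2.66, edgeR adjusted p = 8.47e-05), and the Gm16907 call was lost without any library other than WT replicate 3.

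The direction of Gm26888 depended on the column. It lies opposite Tbc1d16, a Rab GTPase-activating protein, with 12.3% of its exons over that gene's coding sequence. Without strand it stood at 1.36, 1.84 and 0.827 CPM in WT and at 7.38, 9.60 and 11.9 CPM in IRF8KO, a log2 fold change of 2.81 ± 0.57 (edgeR adjusted p = 0.00541). The summed stranded columns gave 31.9, 33.3 and 29.8 CPM in WT and 19.7, 19.6 and 29.9 CPM in IRF8KO, and the fits of the single stranded columns gave -0.51 and -0.42 (edgeR adjusted p = 0.310 and 0.342). Most of the reads added by strand thus lie where Tbc1d16 is also annotated, and Tbc1d16 itself was at -0.18 (edgeR adjusted p = 0.681).

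Gm26669 lies almost wholly opposite Zfp36l1, an RNA-binding protein that promotes mRNA decay, with 92.5% of its exons shared. It was counted at 0.973, 0.991 and 0 CPM in WT and at 4.33, 4.58 and 9.76 CPM in IRF8KO (log2 fold change 3.20 ± 0.92, edgeR adjusted p = 0.0298). In the stranded columns its log2 fold change was 1.27 and 0.95 and did not pass (edgeR adjusted p = 0.0572 and 0.195). It also lost its call without WT replicate 1 or 2 or IRF8KO replicate 1 or 3. Zfp36l1 was at 0.99 (edgeR adjusted p = 0.166). By contrast Gm26780 (chr11:76614467-76622204, plus strand), which sits in an intron of Abr but for 1.12% of its exons, was little touched by strand, with a ratio of 1.08. It rose from 4.86, 4.18 and 2.76 CPM in WT to 24.2, 28.4 and 26.5 CPM in IRF8KO (log2 fold change 2.75 ± 0.40, edgeR adjusted p = 0.000717). Abr was at -0.03 (edgeR adjusted p = 0.952).

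Malat1, an abundant nuclear RNA that gathers at splicing speckles, lost the most reads to an overlap outside coding genes. On the opposite strand of Malat1 (chr19:5795690-5802672, minus strand) lies Gm37376, a 453-base model near the Malat1 start (chr19:5801941-5802393), which had 0 unstranded counts in every library. Unstranded, Malat1 stood at 186, 293 and 60.7 CPM in WT and at 72.9, 114 and 159 CPM in IRF8KO, with overlapping groups (log2 fold change -0.64 ± 0.48, edgeR adjusted p = 0.377). Summed over the stranded columns it stood at 1416, 1530 and 280 CPM in WT and at 186, 454 and 441 CPM in IRF8KO, again overlapping, with a WT mean above the 355 CPM of Gm26917. The single stranded columns gave log2 fold changes of -1.57 and -1.58 (edgeR adjusted p = 0.0557 and 0.0578). With a GC and length offset on the unstranded counts the direction turned, to 0.34 (edgeR adjusted p = 0.517). Of the stranded Malat1 counts, between 78.3% and 86.9% in WT libraries and between 60.9% and 74.8% in IRF8KO libraries were absent from the unstranded column. With stranded sums, the share of gene counts on all members became 0.314% in WT and 0.247% in IRF8KO, the opposite order to the unstranded shares. These sums include reads on exons of 2 genes, which cannot be assigned to either. Gm26541, over Mob3a, had stranded sums of 1321, 4292 and 4653 counts in WT and 3111, 2704 and 3139 in IRF8KO, against at most 58 unstranded.

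**Figure D4:**
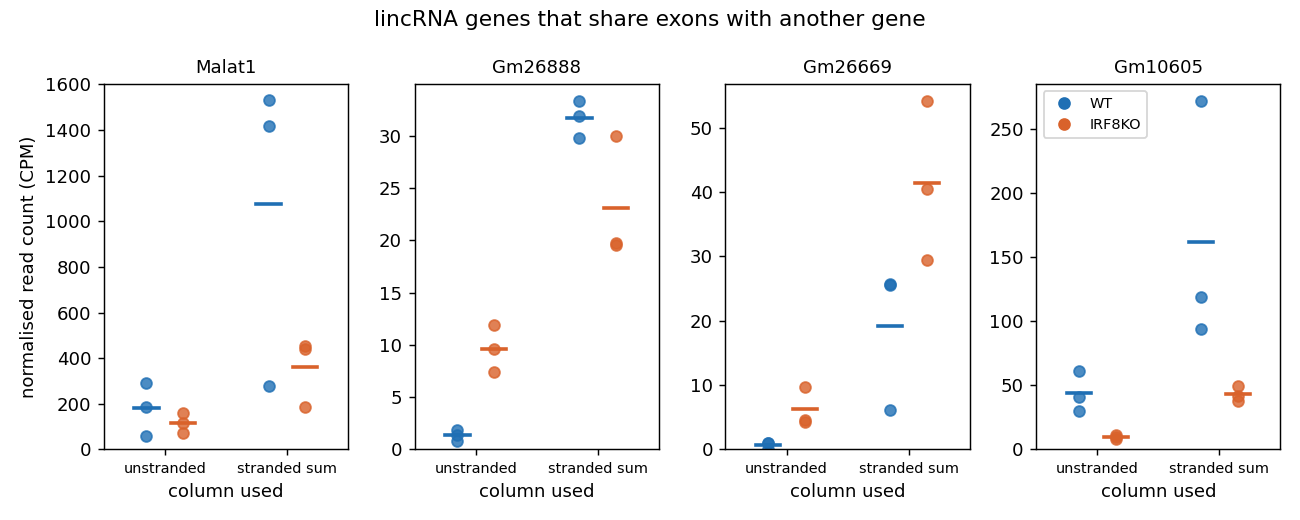
Normalised read count (CPM) of 4 lincRNA genes in each WT and IRF8KO library, from the unstranded column and from the sum of the stranded columns, with bars at group means and a separate axis from 0 for each gene. Gm26888 is higher in IRF8KO without strand and at 31.7 CPM in WT against 23.1 CPM in IRF8KO with it. Malat1 rises to 1075 CPM in WT and 360 CPM in IRF8KO.

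Neat1, the scaffold of paraspeckles, was at 30.4, 55.8 and 7.86 CPM in WT and at 11.4, 25.3 and 17.2 CPM in IRF8KO (log2 fold change -0.80 ± 0.56, edgeR adjusted p = 0.344). Both Malat1 and Neat1 were lowest among WT libraries in replicate 3, and without that library their log2 fold changes were -1.01 and -1.20 (edgeR adjusted p = 0.0339 and 0.0414), in a fit that called 33.5% of all genes. Without WT replicate 2, their highest WT library, they were -0.10 and -0.08 (edgeR adjusted p = 0.927 and 0.953). Of 9 paraspeckle protein genes, 9 were tested and 0 were called, beside 19.1% of all genes tested. Their median log2 fold change was -0.27, beside -0.11 over all genes. Of 8 tested genes of the nuclear RNA exosome and its cofactors, which degrade many noncoding transcripts, 2 were lower (25%, beside 9.46% of all genes) and 0 higher. These were Dis3 at -2.13 and Mtrex at -2.22 (edgeR adjusted p = 0.0433 and 0.0215), and the list median was -0.88. These are few genes, and their part in the lincRNA levels was not tested.

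Other members with a known role did not pass the test. Gm14005, the Morrbid locus, which in myeloid cells controls the neighbouring death gene Bcl2l11, went from a WT mean of 3.07 ± 0.211 CPM to an IRF8KO mean of 5.5 ± 0.982 CPM (SD, n = 3 each; log2 fold change 0.84 ± 0.54, edgeR adjusted p = 0.300). Bcl2l11 was at -0.16 (edgeR adjusted p = 0.820). Lncpint, a transcript induced by p53, was at 1.98 ± 1.75 and 4.44 ± 1.05 CPM (edgeR adjusted p = 0.425), and 2900097C17Rik, a decoy for Pumilio proteins, at 2.88 ± 1.45 and 2.06 ± 0.480 CPM (edgeR adjusted p = 0.683). Tmem250-ps was at 0.66 ± 0.40 (edgeR adjusted p = 0.263) and its value rested on which library was left out. It was 1.28 without WT replicate 3 (edgeR adjusted p = 0.00585), and from 0.39 to 0.82 without any other library, with adjusted p from 0.224 to 0.605. Gm38843 was at 0.22 ± 0.53 (edgeR adjusted p = 0.802). A further 10 members had an unadjusted p below 0.05 without passing the adjusted threshold, 28 in all.

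By position, 20 members overlapped the body of a coding gene, 15 were divergent from the nearest one, 15 converged on it, 15 lay upstream and 11 downstream. Of the divergent genes, 10 had start sites within 5 kb of the coding start, as those beside Rab35, Dynll1 and Kmt2e do. Of these 10, 0 were called, beside 19.1% of all genes tested, with log2 fold changes from -1.72 to 1.82. So few genes cannot show whether divergent members differ from that share. The nearest coding gene was tested for 59 members. Over these 59 pairs the log2 fold changes had a Spearman correlation of 0.33, over the 17 overlapping pairs 0.51 and over the 42 separate pairs 0.15. Pairs share libraries and, where they overlap, reads, so these are descriptions. Signs matched in 12 of the 17 overlapping pairs and 24 of the 42 separate pairs. Both genes of a pair were called in 4 cases: Pvt1 with Myc, Gm10605 with Tpbgl and Gm16907 with 2010111I01Rik in the same direction, and AU020206 with Akap13 in opposite directions.

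**Figure D5:**
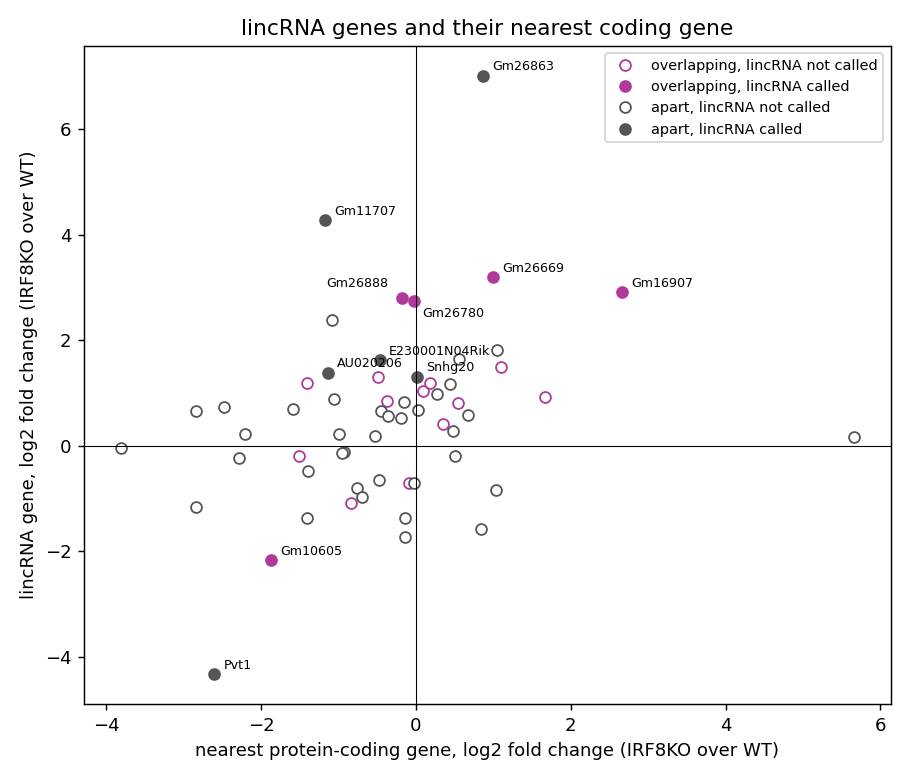
Log2 fold change (IRF8KO over WT) of each lincRNA gene against that of its nearest protein-coding gene, for the 59 pairs in which both were tested. Filled points are called lincRNA genes and colour marks pairs that overlap. Pvt1 (-4.33) and Myc (-2.60) lie at lower left and Gm16907 (2.91) and 2010111I01Rik (2.66) at upper right, while Gm11707 and AU020206 lie above coding genes with negative values.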

How the data were processed

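Per the labels' protocols, cDNA was tagged with Nextera XT, which keeps no strand and no molecular identifiers. The authors deposited raw counts per gene in STAR's layout, with 1 unstranded and 2 stranded columns. The submitters' processing notes name STAR 2.5.2b, Picard 2.17.11, featureCounts and the mm10 build; the annotation release is not given in the sources used here. Of 49585 identifiers, 49326 matched GENCODE M21, and 63 of the 76 members had the same gene version.

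Unstranded counts were tested with edgeR 4.0.16 (R 4.3.3): default expression filter with a minimum count of 10, TMM scaling, quasi-likelihood F test on genotype over all 11041 remaining genes, and Benjamini-Hochberg adjustment over all of them. A gene was called at an adjusted p under 0.05. CPM use TMM-scaled library sizes, and CPM per kb divides by merged exon length. Standard errors were derived from the F statistic. Copies were sought with blastn 2.17.0 (at least 95% identity over 50% of a transcript). On simulated counts with known changes the fit recovered 47 of 100 genes changed 4-fold and 1 of 100 changed 2-fold, with 5 false calls. Replicates are separate animals. Members and lists were chosen with earlier results of these data known.

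Named were the 10 members highest per kb, called members with at least 100 counts, listed known, snoRNA-host and miRNA-host genes, called members with most coding overlap, genes at the edge of the count rule, and called neighbours. Gm14005, Lncpint, 2900097C17Rik, Snhg12, Gm31718 and Gm37376, and the examples of overlap and of divergent pairs, were chosen after their values were seen.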

Additional observations from a re-analysis of the deposited data

How the results depend on the processing

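Over 18 settings of the fit, the number of called members ran from 12 to 25 around 18. The share of all genes called in those fits ran from 7.95% to 33.5%, and the members' share stood differently to it in each. Leaving out 1 library at a time gave 12 (without IRF8KO replicate 1) to 25 (without WT replicate 3), and 12 of the 18 kept their call in all 6 such fits. Leaving out WT replicates 1, 2 and 3 gave 17.1%, 17.1% and 32.9% of members, against 11.4%, 10.4% and 33.5% of all genes. Leaving out IRF8KO replicates 1, 2 and 3 gave 15.8%, 19.7% and 17.1%, against 9.64%, 17.6% and 7.95%. Of the 18, 10 were called in each of the 12 other settings that tested them. With members required to hold 20 counts in all 6 libraries, 9 of 26 were called (34.6%, against 19.98% of all genes with those counts), and with 50 counts in 3 libraries 12 of 32 (37.5%, against 22.4%). Without near-identical copies, a choice made after seeing the data, 17 of 73 were called (23.3%, against 19.1% of all genes), and over the 69 members at the minimum count in both genotypes, added in the same way, 12 (17.4%, against 18.3% of all genes held to it). DESeq2 called 20 (26.3%, against 24.4% of all genes) and limma-voom 18 (23.7%, against 20.7%).

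Libraries were not treated as paired by replicate number. Correlations of same-numbered deviations were -0.26, 0.33 and 0.11, within the range of -0.42 to 0.35 for other pairs. With 3 libraries per group these values cannot exclude pairing. A replicate block left the count at 18 (23.7%, against 21.3% of all genes), with 17 shared, and the Gm26917 change at 1.62.

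Directions reversed as follows. Mir142hg was at -0.38 with library size alone, -1.41 with a GC and length offset, -1.02 with that offset and a block, -0.10 in the second stranded column and -0.13 without WT replicate 3, the low end of a leave-one-out range that reached 0.55. Malat1 was at 0.34 and 0.32 with the GC and length offset, without and with a block. Gm38843 was at -0.32 with library size alone and -0.67 and -0.65 with the offset. Gm26888 was at -0.51 and -0.42 in the stranded columns. 4933404O12Rik turned to 0.19 in the second stranded column, and to 0.18, 0.03 and 0.38 without WT replicate 1, WT replicate 2 and IRF8KO replicate 1 (leave-one-out range -1.34 to 0.38). A430046D13Rik turned to -0.43 with library size alone, -0.26 in the second stranded column, and -0.23 and -0.19 without WT replicate 3 and IRF8KO replicate 1 (range -0.23 to 0.66). Of these genes, Gm26888 alone was called; beyond what each setting changes, the cause was not tested.

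The share of gene counts on members moved in WT from 0.145% to 0.0784% without Malat1 and rRNA-adjacent genes and to 0.314% with stranded sums, which include reads shared with other genes. In IRF8KO it moved from 0.183% to 0.0792% and 0.247%, and to 0.257% without Apoe. Leaving out 1 library gave 0.129% to 0.171% in WT and 0.162% to 0.201% in IRF8KO. The share of members over coding exons was 10.5% at a minimum overlap of 10% and 5.90% over all listed lincRNA genes. Low counts limit most members: 50 of 76 lacked 20 counts in some library.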

Other observations

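LincRNA genes below the count rule could also be tested where they passed the expression filter. Of these 67, 6 were called (8.96%, against 19.1% of all genes tested), all higher in IRF8KO (against a background of 9.64% higher). They include Mirt1, known from injured heart muscle, at 0, 5 and 0 counts in WT and 18, 14 and 61 counts in IRF8KO (log2 fold change 4.39, edgeR adjusted p = 0.0216), and Gm44507, at 0 counts in WT and 10, 35 and 29 counts in IRF8KO (edgeR adjusted p = 0.00556). These genes had few counts in WT and reached the filter through the IRF8KO libraries.

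The lincRNAs known from neurons stayed below both filters. Meg3 had 0, 2 and 3 counts in WT and 5, 6 and 24 counts in IRF8KO. Miat had 0, 0 and 1 counts in WT and 8, 24 and 13 counts in IRF8KO. Pantr1 had 0 counts in every WT library and 5, 8 and 10 counts in IRF8KO. Neuronal markers, of which 2 of 4 tested were higher in IRF8KO, lay in the same direction, and their part in these counts was not tested. Ptgs2os2, H19, Mirt2 and Xist were listed with 0 counts in all 6 libraries. Gm42418 and AY036118 were listed with 0 as well, but both lie inside the ribosomal RNA gene CT010467.1 on chromosome 17, where the unstranded column drops reads shared between genes, so these 0 counts say nothing of their expression.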
